A study of Mus musculus with 18 samples.

Results

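The 5 genes described here make and control the iron-handling proteins that textbooks use as the standard case of translational control. They were chosen by name from the rows of a count table of polysome fractions. Fth1 and Ftl1 encode the heavy and light chains of ferritin, the shell that stores iron in the cytosol. Tfrc encodes the transferrin receptor, which brings iron-loaded transferrin into the cell. Aco1 and Ireb2 encode the iron regulatory proteins IRP1 and IRP2. All 5 were found among 51467 genes of the table, and all 5 were among the 12851 genes that reached 3 CPM (the counts of a gene scaled to a common library total) in at least 3 libraries, which were the genes tested. Ftl1 passed that filter only through its monosome libraries.

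Iron regulatory proteins bind iron-responsive elements (IREs), short stem-loops in untranslated regions (UTRs) of messages. A protein bound to an element in the 5′ UTR, as in ferritin messages, keeps the small ribosomal subunit from loading. Bound to elements in the 3′ UTR, as in the transferrin receptor message, it protects the message from decay. When iron is plentiful, IRP1 takes up an iron-sulphur cluster and acts as the cytosolic aconitase, and IRP2 is degraded. Iron content of the cells was not analysed here.

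The samples were mouse embryonic stem cells (ESCs) of 2 genotypes, wild type (WT) and DGCR8 KO, grown in serum with LIF and the inhibitors PD0325901 and CHIR99021 (2i). DGCR8 is required to process primary microRNA (miRNA) transcripts, and cells without it lack canonical miRNAs. Both genotypes received cycloheximide at 100 ug/ml for 2 minutes, which arrests ribosomes on the message, and lysates were run on 10 to 50% sucrose gradients. Each of 6 gradients, 3 per genotype, gave RNA from monosomes, from low polysomes with 2 to 4 ribosomes per message and from high polysomes with 4 or more, which was sequenced at the 3′ ends of messages, giving 6 groups of 3 libraries with 1151649 to 4984833 counts each. The study's methods name V6.5, which it lists as the WT line, and the KO cells are listed as another line made earlier in the same laboratory. Effects of genotype and of line history cannot be told apart here. Whether the gradients came from separate cultures, and whether the KO cells were 1 clone, is not given in the sources used here, so p-values measure the spread between these gradients.

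The libraries were checked against their labels first. Dgcr8 (chromosome 16, 18253948 to 18289249, minus strand) kept reads in every KO library, between 38 and 183 counts, and was lower in KO than in WT in each fraction, with log2 changes of -0.56, -0.46 and -1.01 from monosomes to high polysomes (adjusted p = 0.0185, 0.0223 and 0.000276, limma). All 9 ESC marker genes were among the genes tested, with a summed level of 3340 to 6050 CPM in WT and 3150 to 4020 CPM in KO libraries. Of 8 markers of erythroid cells, a cell type rich in Tfrc, 0 reached the filter, and their summed level was 2.5 to 6.97 CPM in WT and 2.01 to 26.8 CPM in KO libraries. The 5 macrophage markers, of which 1 reached the filter, summed to 19.1 to 34.1 CPM in WT and 46.4 to 102 CPM in KO libraries, with Adgre1 at 0 in all. Fibroblast markers (2 of 6 tested) summed to at most 22.2 CPM and primitive endoderm markers (2 of 5 tested) to at most 11.5 CPM in any library. The part of these markers in the results below was not tested. Levels are relative to the other messages of a fraction, and in these bulk samples fewer cells of a type and less RNA per cell cannot be told apart.

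The elements that give these genes their name are printed here because the results are ordered by them. A search for a C, 5 bases, a loop of the letters CAGNGN with A or T at the first N and no G at the second, and 5 bases that pair with the first 5 (G-T pairs allowed) found 1 element in the 5′ UTR of Fth1, 1 in the 5′ UTR of Ftl1 and 5 in the 3′ UTR of Tfrc. Each is given 5′ to 3′ with 6 bases on either side, on the strand of the gene, with the loop in capitals. Sequences are from GENCODE M21 transcripts on GRCm38 (mm10).
Fth1 5′ UTR, chr19:9982732-9982760, plus strand: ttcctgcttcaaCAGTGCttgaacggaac
Ftl1 5′ UTR, chr7:45459779-45459807, minus strand: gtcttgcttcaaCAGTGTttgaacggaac
Tfrc 3′ UTR element 1, chr16:32631160-32631188, plus strand: atttatcagtgaCAGAGTtcactataaat
Tfrc 3′ UTR element 2, chr16:32631219-32631247, plus strand: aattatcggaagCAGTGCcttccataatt
Tfrc 3′ UTR element 3, chr16:32631598-32631626, plus strand: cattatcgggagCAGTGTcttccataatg
Tfrc 3′ UTR element 4, chr16:32631663-32631691, plus strand: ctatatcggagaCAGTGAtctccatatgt
Tfrc 3′ UTR element 5, chr16:32631710-32631738, plus strand: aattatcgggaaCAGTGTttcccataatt

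Such a match was rare. It was present in 27 of 11403 5′ UTRs of genes tested (0.237%) and in 118 of 11640 3′ UTRs (1.014%). No match was found in either UTR of Aco1 or Ireb2, whose proteins bind the elements. A match is a description of letters and not evidence of binding.

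The 5 genes fell into short and long messages. Fth1 (ENSMUSG00000024661.6, chromosome 19, 9982703 to 9985092, plus strand) has a coding sequence (CDS) of 549 bases between UTRs of 224 and 156 bases. Ftl1 (ENSMUSG00000050708.16, chromosome 7, 45457944 to 45459884, minus strand) is of nearly the same size, with a CDS of 552 bases and UTRs of 253 and 163 bases. Tfrc (ENSMUSG00000022797.15, chromosome 16, 32608920 to 32632794, plus strand) has a CDS of 2292 bases and a 3′ UTR of 2458 bases. Aco1 (ENSMUSG00000028405.9, chromosome 4, 40143081 to 40198338, plus strand) has a CDS of 2670 bases and a 3′ UTR of 671 bases, and Ireb2 (ENSMUSG00000032293.8, chromosome 9, 54863789 to 54912530, plus strand) a CDS of 2892 bases and a 3′ UTR of 2789 bases.

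Fth1 was higher in monosomes than in polysomes of WT cells, and its polysome to monosome ratios were higher in KO cells. The gene encodes the chain of ferritin that oxidises iron before storage. The Fth1 level in WT monosomes was 478, 358 and 468 CPM (434 ± 66.3, mean ± SD, n = 3). In WT low polysomes it was 203, 160 and 257 CPM (207 ± 48.3, n = 3) and in WT high polysomes 195, 165 and 223 CPM (194 ± 29.1, n = 3). Each WT monosome library was above each WT polysome library, while the low and high polysome libraries overlapped. In KO monosomes the Fth1 level was 293, 264 and 346 CPM (301 ± 41.5, n = 3). It was 269, 200 and 314 CPM in KO low polysomes (261 ± 57.5, n = 3) and 252, 237 and 235 CPM in KO high polysomes (241 ± 9.4, n = 3). In KO cells the monosome and low polysome libraries overlapped, and the high polysome libraries lay below every monosome library.

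**Figure D1:**
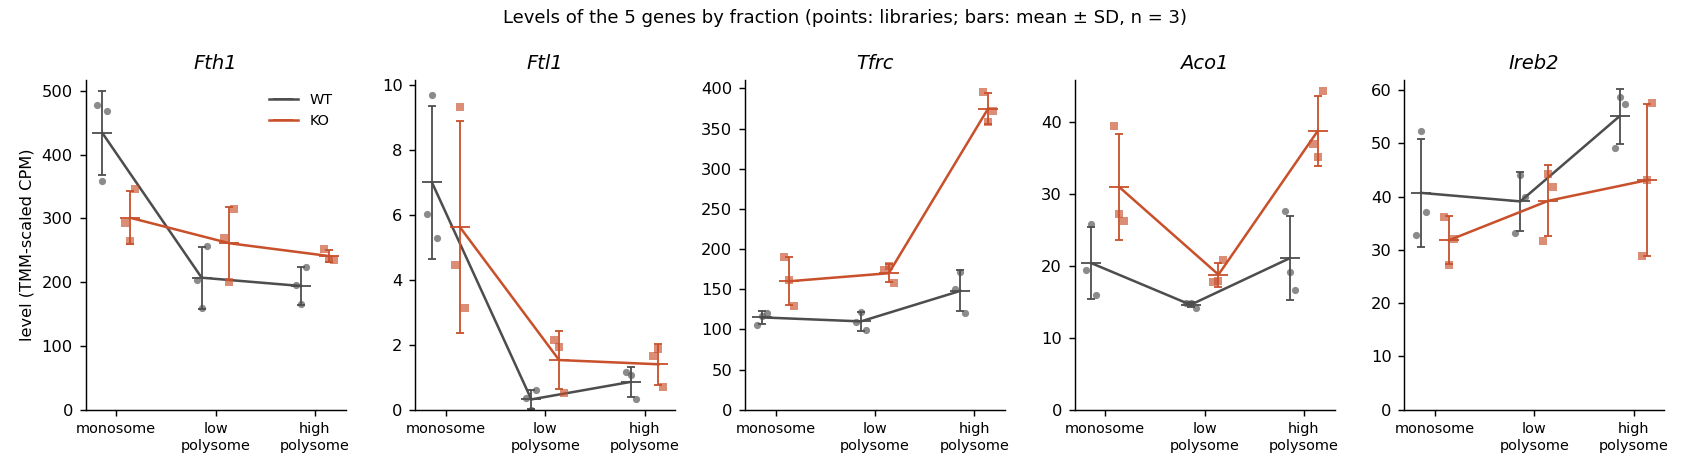
Level of each gene (vertical axis, CPM scaled with TMM factors, from 0) in monosome, low polysome and high polysome fractions of WT (grey circles) and KO (orange squares) cells. Points are libraries, and bars and lines give the mean ± SD of 3; Fth1 falls from 434 to 194 CPM along the WT gradient, and Tfrc reaches 375 CPM in KO high polysomes against 148 CPM in WT.

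The fits asked how each message was placed between fractions and whether that differed by genotype. Genes are described as called where limma-voom, over all genes tested, gave an adjusted p below 0.05 together with a log2 change beyond 1 in either direction. In WT cells the Fth1 high polysome to monosome ratio, the study's translation level, had a log2 value of -1.16 (SE 0.15, adjusted p = 3.69e-08), and the low polysome to monosome ratio had a log2 value of -1.08 (SE 0.15, adjusted p = 3.15e-07). Both were called. Of 11763 coding genes tested, 13.4% had a lower log2 high polysome to monosome ratio in WT cells. Fth1 and Ftl1 were the 2 of 5 genes called in each of these comparisons, Ftl1 with the limit that it entered the tests through its monosome libraries. Of all genes tested, 30.1% were called in the comparison of high polysomes with monosomes and 14.1% in that of low polysomes. In KO cells the Fth1 log2 ratios were -0.31 for high polysomes to monosomes (SE 0.15, adjusted p = 0.065) and -0.22 for low polysomes to monosomes (SE 0.15, adjusted p = 0.243), and neither passed the test. With the gradient as a block the first of these passed the adjusted p (-0.32, adjusted p = 0.0107), and with total counts it was -0.56 (adjusted p = 0.00115). The WT low polysome to monosome value was -0.98 without WT replicate 2, just under the fold threshold (adjusted p = 6.03e-05).

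The difference between genotypes was tested as the interaction of genotype and fraction. For Fth1, the translation level was 1.8-fold higher in KO than in WT cells (log2 change 0.85, 95% interval 0.41 to 1.28, adjusted p = 0.00254), and the low polysome to monosome ratio 1.82-fold higher (log2 change 0.87, 0.43 to 1.30, adjusted p = 0.00449). Both passed the adjusted p and neither passed the fold threshold. The high to low polysome ratio changed by -0.02 on the log2 scale (95% interval -0.45 to 0.41, adjusted p = 0.965). Per gradient, the log2 high polysome to monosome ratio of Fth1 was -1.29, -1.12 and -1.07 in WT and -0.22, -0.16 and -0.56 in KO cells. The corresponding log2 low polysome to monosome ratio was -1.23, -1.16 and -0.86 in WT and -0.12, -0.40 and -0.14 in KO cells. In both ratios every KO gradient lay above every WT gradient.

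The scale of these changes depends on how libraries are made comparable. When libraries were scaled by their totals and not by TMM factors, the median translation level change of all genes moved by -0.33 on the log2 scale, and the Fth1 change was 0.52 (adjusted p = 0.0618), which no longer passed the adjusted p.

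**Figure D2:**
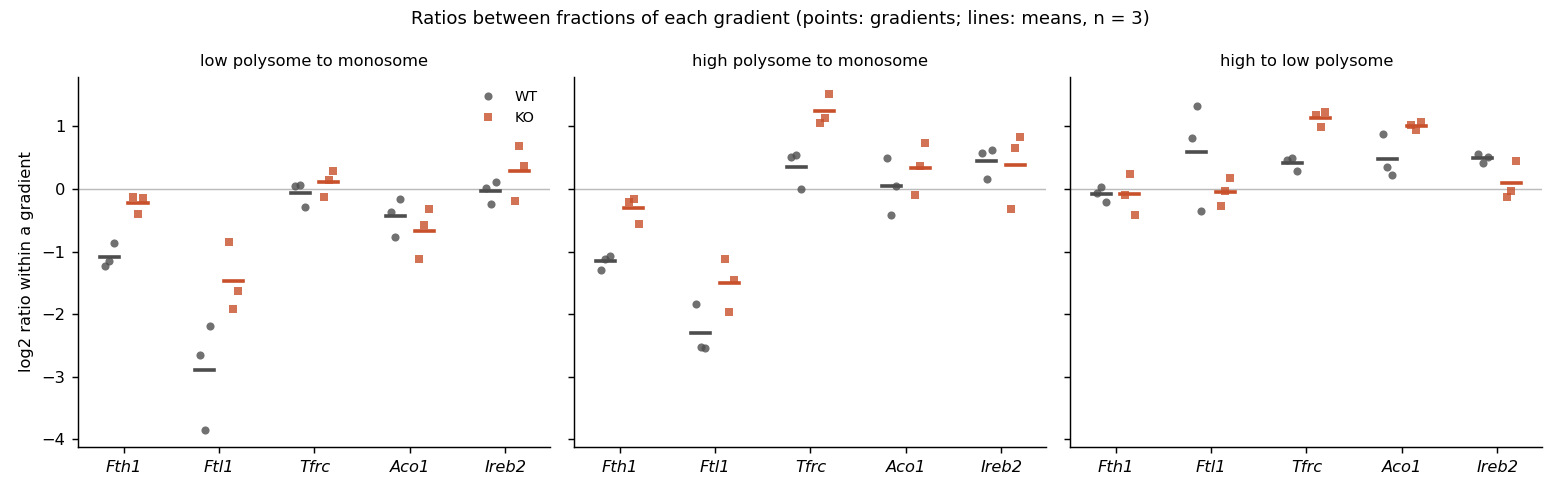
Log2 ratio between 2 fractions of the same gradient (vertical axis) for each gene, with WT gradients as grey circles, KO gradients as orange squares and means as lines (3 gradients each). For Fth1 the KO gradients lie above the WT gradients in both panels of ratios to monosomes. For Tfrc they do so in both panels of ratios that involve high polysomes.

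In KO against WT within a fraction, the Fth1 level fell in monosomes (log2 change -0.52, SE 0.15, adjusted p = 0.00602). The log2 changes in low and high polysomes were 0.34 (SE 0.15, adjusted p = 0.0539) and 0.32 (SE 0.15, adjusted p = 0.064), which did not pass. With the replicate number as a block both passed the adjusted p (0.0115 and 0.0157). The monosome value was -0.45 without WT replicate 1 (adjusted p = 0.0567) and with no filter on low counts (adjusted p = 0.0507). The 3 KO monosome libraries were all below the WT monosome libraries, and the 3 KO high polysome libraries all above the WT high polysome libraries, whereas the low polysome libraries overlapped. Ordered by mean level, WT monosomes stood above KO monosomes without overlap, and each following neighbour, KO monosomes, KO low polysomes, KO high polysomes, WT low polysomes and WT high polysomes, overlapped the next.

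The Fth1 change had the opposite sign to the median of messages of its size. Among 572 coding genes tested with a CDS within 10% of the Fth1 CDS, the median translation level change was -0.78 on the log2 scale (quartiles -1.13 and -0.39), and 10 genes had a higher value than Fth1. For the low polysome to monosome ratio change the median of these genes was -0.35, and 17 had a higher value. In WT cells the log2 high polysome to monosome ratio of the same genes had a median of 0.04, and 19.4% lay below Fth1. In KO cells the median was -0.80, and 69.2% lay below Fth1. These are ranks among genes of these libraries and carry no test.

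**Figure D3:**
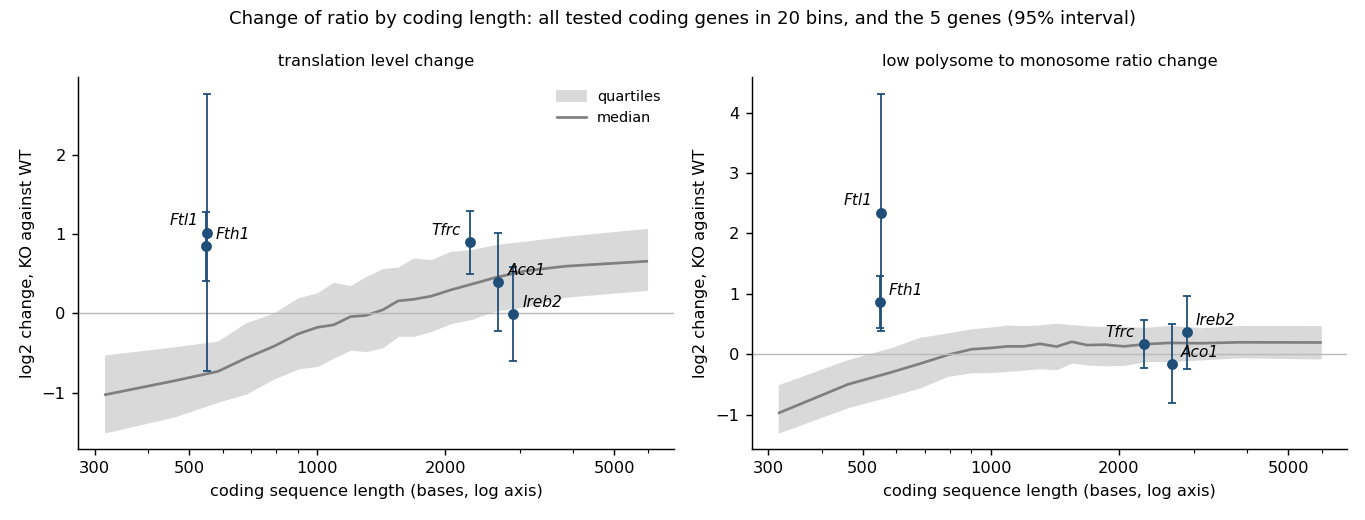
Log2 change of the high polysome to monosome ratio (left) and of the low polysome to monosome ratio (right), KO against WT, by CDS length in bases (log axis). The grey line and band give the median and quartiles of all tested coding genes in 20 bins of length, and blue points with 95% intervals the 5 genes; Fth1 at 0.85 stands above a median of -0.78 for genes of its length.

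Ftl1, the light chain that helps to form the iron core, gave few counts, and most of its 3′ end is shared with copies of the gene. The authors kept only reads that aligned to 1 place. Of 451 windows of 50 bases, the read length, in the last 500 bases of Ftl1, 365 (80.93%) also occur in 1 or more of 15 other genes, 3 of them named as ferritin copies, against 58 (12.86%) for Fth1 and 0 for Tfrc, Aco1 and Ireb2. Ftl1 also overlaps Gm22133 on the same strand. Its row held 109 counts in all 18 libraries, against 12792 for Fth1, and the 15 rows that share its windows held 21. Values for Ftl1 are therefore uncertain.

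Those counts were mostly in monosomes. Ftl1 had 9, 15 and 6 counts in WT monosomes, 1, 0 and 2 in WT low polysomes and 3, 3 and 1 in WT high polysomes. KO monosomes held 8, 24 and 8 counts, KO low polysomes 7, 6 and 2, and KO high polysomes 5, 6 and 3. In both genotypes every monosome library was above every polysome library in CPM. Ordered by mean level, WT monosomes (7.0 CPM) and KO monosomes (5.63 CPM) overlapped, and the 4 polysome groups, from 1.53 to 0.318 CPM, overlapped each neighbour. With counts pooled over libraries and scaled, the WT high polysome to monosome ratio was 0.115 (exact 95% counting interval 0.0426 to 0.267) and the WT low polysome to monosome ratio 0.0428 (0.00837 to 0.138). In KO cells they were 0.229 (0.115 to 0.43) and 0.255 (0.131 to 0.472). These intervals cover counting error only, and reads without molecular identifiers are not independent molecules.

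By limma, Ftl1 was called lower in polysomes than in monosomes in both genotypes, with an adjusted p of 0.000226 (high, WT), 0.0017 (high, KO), 3.92e-05 (low, WT) and 0.00407 (low, KO). Since the gene entered the tests through its monosome libraries, these calls were favoured by the filter. In KO cells, 2 of 5 genes were called in high polysomes against monosomes (Ftl1 and Tfrc, background 43.0%) and 1 of 5 in low polysomes against monosomes (Ftl1, 16.8%). Without KO replicate 2, the KO low polysome call was lost (adjusted p = 0.0536). The change between genotypes was not detectable at this depth: the log2 translation level change was 1.02 with a 95% interval of -0.73 to 2.77 (adjusted p = 0.412), and that of the low polysome to monosome ratio 2.34 (0.38 to 4.31, adjusted p = 0.117). In low polysomes the KO to WT ratio of pooled counts was 4.78 (counting interval 1.35 to 25.8), from 15 and 3 counts. The log2 change in that fraction was 1.90 (adjusted p = 0.0587). It was called by edgeR (2.12, adjusted p = 0.0384), limma-trend (1.07, 0.0455), the fit with a replicate block (2.08, 0.0151) and without KO replicate 3 (2.54, 0.0101). It was not called by DESeq2 (2.25, adjusted p = 0.0535), with ferritin copies added (1.37, 0.156) or without WT replicate 2 (1.13, 0.323).

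Tfrc differed by less than the fold threshold between WT fractions, and its level was higher in all 3 fractions of KO cells. In WT monosomes its level was 105, 117 and 121 CPM (115 ± 8.37, n = 3). WT low polysomes gave 109, 122 and 98.7 CPM (110 ± 11.9, n = 3) and WT high polysomes 150, 172 and 121 CPM (148 ± 25.5, n = 3). The WT high polysome mean was the highest of the 3, and low polysome and monosome libraries overlapped. The Tfrc level in KO monosomes was 190, 162 and 129 CPM (160 ± 30.2, n = 3). KO low polysomes gave 174, 179 and 158 CPM (170 ± 10.9, n = 3) and KO high polysomes 396, 358 and 372 CPM (375 ± 19.5, n = 3). In every fraction the KO libraries lay above the WT libraries. The order of means ran from KO high polysomes through KO low polysomes, KO monosomes, WT high polysomes and WT monosomes to WT low polysomes, and the first and the fourth of these stood clear of the next, the fourth narrowly, since the lowest WT high polysome library and the highest WT monosome library both rounded to 121 CPM.

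In high polysomes Tfrc was 2.56-fold higher in KO than in WT cells (log2 change 1.36, SE 0.13, adjusted p = 6.57e-12), which was called. It was the 1 gene of the 5 called in that comparison, in which 33.1% of all genes tested were called. Its log2 change was 0.63 in low polysomes (SE 0.13, adjusted p = 0.000113) and 0.46 in monosomes (SE 0.15, adjusted p = 0.0119), both past the adjusted p and under the fold threshold. The monosome value no longer passed without WT replicate 1 (0.40, adjusted p = 0.0804) or KO replicate 1 (0.34, 0.08). None of the 5 genes was called in monosomes or in low polysomes, where 18.1% and 25.0% of genes tested were called. At the adjusted p alone the counts were 2 of 5 in monosomes (background 37.3%), 1 of 5 in low polysomes (52.3%) and 2 of 5 in high polysomes (60.7%).

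The Tfrc translation level was 1.86-fold higher in KO cells (log2 change 0.90, 95% interval 0.50 to 1.29, adjusted p = 0.000493). The difference lay between low and high polysomes: the high to low polysome ratio changed by 0.73 on the log2 scale (0.35 to 1.10, adjusted p = 0.00464) and the low polysome to monosome ratio by 0.17 (-0.23 to 0.57, adjusted p = 0.671). For Fth1 the translation level and the low polysome to monosome ratio passed the adjusted p, and the high to low polysome ratio did not. Whether Fth1 and Tfrc differ in this was not tested. Per gradient, the log2 high to low polysome ratio of Tfrc was 0.46, 0.49 and 0.30 in WT and 1.18, 0.99 and 1.23 in KO cells. Its log2 high polysome to monosome ratio was 0.51, 0.55 and 0.00 in WT and 1.06, 1.139 and 1.52 in KO cells, and KO gradients were above WT gradients in both. With total counts the translation level change of Tfrc was 0.57 (adjusted p = 0.0246).

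None of the 5 genes was called in the 3 changes of ratio between genotypes. The background was 15.1% of genes tested called for the translation level, 5.03% for the low polysome to monosome ratio and 5.18% for the high to low polysome ratio. By the adjusted p alone, 2 of 5 passed for the translation level (Fth1 and Tfrc, background 28.2%), 1 of 5 for the low polysome to monosome ratio (Fth1, 11.4%) and 1 of 5 for the high to low polysome ratio (Tfrc, 17.8%). KO and WT gradients did not overlap for 2 of 5 genes in the high polysome to monosome ratio (41.7% of all genes tested), for 2 of 5 in the low polysome to monosome ratio (30.4%; Fth1 and Ftl1) and for 2 of 5 in the high to low polysome ratio (34.4%; Tfrc and Aco1).

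Within a genotype, Tfrc was higher in high polysomes than in the other fractions. The log2 low polysome to monosome ratio was -0.06 in WT and 0.11 in KO cells, and neither passed the adjusted p. In WT cells its log2 high polysome to monosome ratio was 0.35 (SE 0.15, adjusted p = 0.0393) and its log2 high to low polysome ratio 0.41 (SE 0.14, adjusted p = 0.00971). Neither WT value passed without WT replicate 1 (adjusted p = 0.245 and 0.0664) or WT replicate 2 (0.144 and 0.0678), and the first did not pass with the stricter filter of 10 CPM (0.112). In KO cells these were 1.25 (SE 0.13, adjusted p = 4.15e-11) and 1.139 (SE 0.13, adjusted p = 5.22e-10), and both were called. In the KO high to low polysome comparison 2 of the 5 genes were called, Tfrc and Aco1, against 25.8% of all genes tested. With total counts neither was past the fold threshold, at 0.97 for Tfrc and 0.87 for Aco1. Tfrc was less far from the genes of its length than Fth1 was: among 987 coding genes with a CDS within 10% of that of Tfrc, the median translation level change was 0.35 and 189 had a higher value.

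Aco1, which encodes IRP1 or cytosolic aconitase according to iron supply, rose in KO high polysomes. Its level was 19.4, 25.8 and 15.9 CPM in WT monosomes, 14.8, 14.8 and 14.1 CPM in WT low polysomes and 27.7, 19.1 and 16.6 CPM in WT high polysomes. KO monosomes gave 39.5, 27.2 and 26.2 CPM, and the KO polysome levels were 17.8, 17.9 and 20.8 CPM (low) and 37.0, 35.1 and 44.4 CPM (high). Every KO library was above every WT library of its fraction, and low polysomes gave the lowest libraries of each genotype. Between genotypes the high polysome level of Aco1 differed by 0.93 on the log2 scale (SE 0.19, adjusted p = 3.93e-05), past the adjusted p and under the fold threshold, which it crossed without WT replicate 1 (1.13) or KO replicate 2 (1.0). In monosomes and low polysomes it was 0.53 (adjusted p = 0.0849) and 0.37 (adjusted p = 0.148), neither of which passed. By mean level KO high polysomes (38.8 CPM) came first and WT low polysomes (14.6 CPM) last, and each group overlapped the next except that KO low polysomes stood clear of WT low polysomes.

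The Aco1 translation level did not change detectably (log2 change 0.40, 95% interval -0.22 to 1.02, adjusted p = 0.355). Its value was close to the median of 0.47 for 803 coding genes of like CDS length. The high to low polysome ratio of Aco1 was 2.05-fold in KO cells (log2 value 1.04, SE 0.18, adjusted p = 5.82e-06) and had a log2 value of 0.48 in WT cells (SE 0.22, adjusted p = 0.0615; 0.0476 with the gradient as a block). The difference between the genotypes was 0.56 (95% interval -0.01 to 1.13, adjusted p = 0.18), which did not pass. In KO cells the low polysome to monosome ratio fell (log2 value -0.66, SE 0.20, adjusted p = 0.00639), and it did not pass without KO replicate 1 (-0.46, 0.115).

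Ireb2, which encodes IRP2, did not pass the test between genotypes in any fraction or ratio. Its level was 32.8, 52.3 and 37.1 CPM in WT monosomes, 33.1, 44.1 and 40.0 CPM in WT low polysomes and 49.1, 58.7 and 57.3 CPM in WT high polysomes. KO monosomes gave 36.1, 27.2 and 32.1 CPM, KO low polysomes 31.7, 44.2 and 41.8 CPM and KO high polysomes 28.8, 43.2 and 57.5 CPM. WT and KO libraries overlapped in each fraction, and the KO high polysome libraries spread the most. Group means ran from 55.1 CPM in WT high polysomes to 31.8 CPM in KO monosomes, and every neighbour in that order overlapped the next. The log2 changes of KO against WT were -0.37 in monosomes (adjusted p = 0.225), -0.01 in low polysomes (0.977) and -0.38 in high polysomes (SE 0.18, adjusted p = 0.0649). The high polysome value passed the adjusted p with total counts (-0.60, 0.00371), a filter of 10 CPM (-0.43, 0.0331), the replicate block (-0.37, 0.0483) and without KO replicate 3 (-0.64, 0.00662), and was -0.13 without KO replicate 1 (0.51). The log2 translation level change was -0.01 with a 95% interval of -0.61 to 0.59 (adjusted p = 0.986), so a change of the size of that of Fth1 lies outside the interval. Among 708 coding genes of like CDS length the median was 0.52, and 557 had a higher value. The 1 Ireb2 ratio past the adjusted p was high to low polysomes in WT cells (log2 value 0.49, SE 0.18, adjusted p = 0.0211), and it did not pass without WT replicate 1 (0.083) or WT replicate 3 (0.102). The high polysome to monosome ratio of Ireb2 passed with the gradient as a block (0.42 in WT, adjusted p = 0.0454, and 0.48 in KO, 0.016) and not without it (0.0792 and 0.0563). In the comparison of high with low polysomes in WT cells none of the 5 genes was called (background 23.6%) and 2 passed the adjusted p alone (53.1%), Tfrc and Ireb2.

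**Figure D4:**
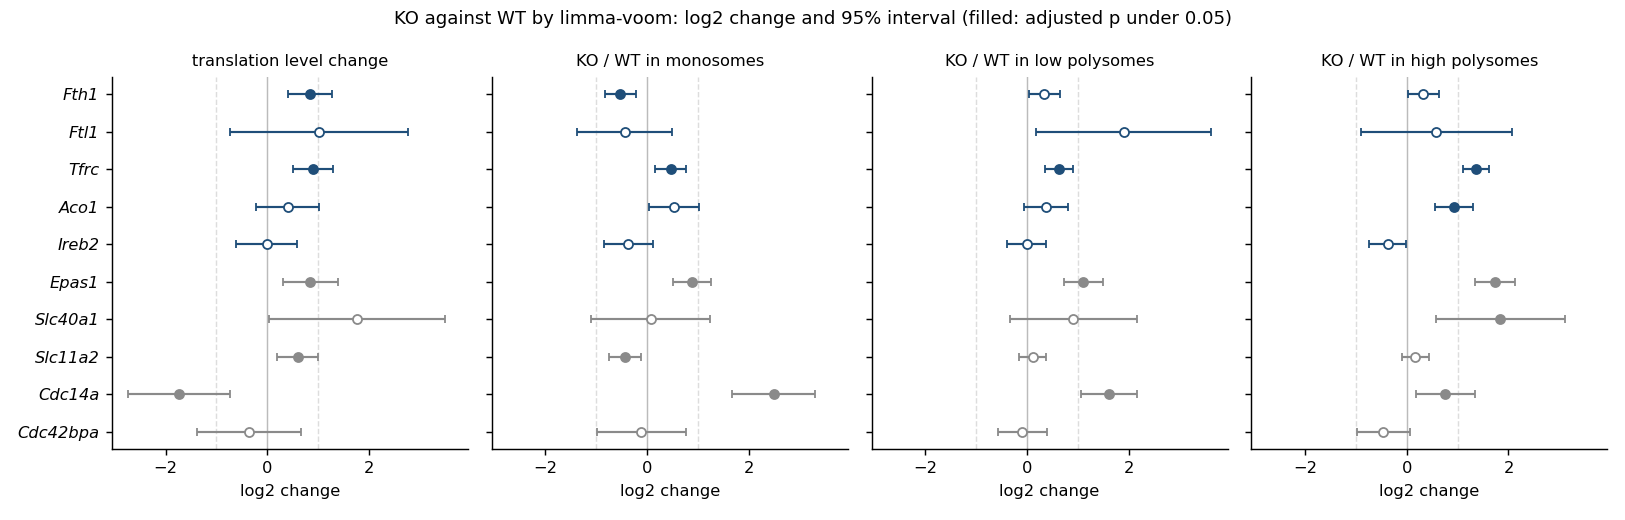
Log2 change of KO against WT with 95% intervals (horizontal axes) for the translation level and for the level in each fraction; filled points have an adjusted p under 0.05 in limma-voom and dashed lines mark a log2 change of 1. The 5 genes are in blue and 5 other genes with a known IRE in grey; Tfrc is past the line in high polysomes at 1.36.

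Other genes known to carry an IRE were compared as a list. Of 6 listed genes, 5 were tested and Alas2, the erythroid enzyme of haem synthesis, was not. In translation level 2 of the 5 rose at the adjusted p and 1 fell, which was also called. The background was 28.2% past the adjusted p and 15.1% called, counting both directions together here and for the lists below. The list median was 0.60 against 0.01 over all genes tested, a contrast that takes no account of CDS length. Over coding genes the median change rose from -1.03 in the shortest of 20 length bins to 0.66 in the longest. Listed genes were not compared with genes of their own CDS length. Epas1, which encodes the hypoxia factor HIF-2α, rose by 0.85 (SE 0.27, adjusted p = 0.0147), with every KO gradient above every WT gradient. The level of Epas1 was higher in KO cells in each fraction, by log2 changes of 0.88, 1.11 and 1.73 from monosomes to high polysomes (adjusted p = 0.000247, 5.91e-06 and 3.85e-10).

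The other genes of that list were less alike. Slc11a2, the metal transporter DMT1, rose in translation level by 0.60 (SE 0.20, adjusted p = 0.0231). Cdc14a, a phosphatase, was lower by a log2 change of -1.73 (SE 0.50, adjusted p = 0.00724), while its level in monosomes was higher by 2.49 (adjusted p = 4.78e-06). Slc40a1, the iron exporter ferroportin, had 1 to 20 counts per library. Its translation level change was 1.77 with an interval of 0.04 to 3.51 (adjusted p = 0.121). It was called higher in KO high polysomes (log2 change 1.84, SE 0.63, adjusted p = 0.0112). The WT high polysome libraries of Slc40a1, at 1.95, 1.44 and 0.318 CPM, were all under the filter of 3 CPM. Its place among the genes tested leaned in part on KO libraries, which favoured this call. Cdc42bpa had a value of -0.36 (adjusted p = 0.649). The search found a match in the 5′ UTR of Slc40a1 and none in the transcripts used for Epas1, Slc11a2, Cdc14a or Cdc42bpa.

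Genes of iron uptake, export and storage moved both ways. Of 22 listed, 12 were tested. In translation level 4 rose at the adjusted p and 1 fell, against 28.2% of all genes tested past it, and the list median was 0.73. The 2 called were Trf, the iron carrier transferrin, at 1.86 (SE 0.71, adjusted p = 0.0459), and Mcoln1, an endolysosomal cation channel, at 1.05 (SE 0.34, adjusted p = 0.0184). The Trf value rests on low monosome levels, 3.22 ± 1.26 CPM in WT and 2.74 ± 1.94 CPM in KO cells (n = 3). Slc39a14, the metal transporter ZIP14, was called higher in KO cells in all 3 fractions. Its level was 2.65 ± 1.36 CPM in WT against 17.6 ± 1.23 CPM in KO monosomes (n = 3). In high polysomes it was 3.21 ± 0.324 against 33.8 ± 4.71 CPM (n = 3), and in low polysomes it averaged 2.02 against 19.9 CPM. The WT means were thus near or under the filter of 3 CPM. The place of Slc39a14 among the genes tested leaned on KO libraries, which favoured its calls. The metalloreductase gene Steap2 was called lower in all 3 fractions and averaged 11.3 CPM in monosomes of WT against 1.26 CPM in those of KO cells. Slc11a1, the phagosomal metal transporter NRAMP1, was also called lower in all 3 and averaged 7.28 CPM in monosomes of WT against 0.891 CPM in those of KO cells. Steap2 and Slc11a1 averaged under 3 CPM in each KO group and above it in each WT group. Their place among the genes tested thus leaned on WT libraries, which favoured these calls.

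Genes of haem synthesis, breakdown and transport were a further list. Of 19 listed, 18 were tested, and the median translation level change was -0.20. No haem gene rose in translation level at the adjusted p and 1 fell, which was called (background 28.2% and 15.1%). Tmem14c, a mitochondrial porphyrinogen transporter, had a log2 change of -1.70 (SE 0.22, adjusted p = 9.28e-08). It was not compared with genes of like CDS length. Flvcr2, a membrane transporter of the FLVCR family, was called higher in all 3 fractions, with high polysome levels of 19.3 ± 5.24 CPM in WT and 198 ± 29.7 CPM in KO cells (n = 3).

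Of 28 listed genes of iron-sulphur cluster assembly, 27 were tested. In low polysomes 14 fell and 4 rose at the adjusted p, where 52.3% of all genes tested passed it in either direction. In high polysomes 17 fell and 4 rose, where 60.7% of all genes tested passed it in either direction, with a list median of -0.79 against -0.08 over all genes tested. In translation level 7 fell and 4 rose (background 28.2%), and 4 of those that fell were called (15.1%). These were Ciao2b of the cytosolic assembly machinery (log2 change -1.38, adjusted p = 6.4e-05), Lyrm4, a partner of the cysteine desulphurase (-1.49, adjusted p = 0.00508), Nubpl, an assembly factor for respiratory complex I (-1.34, adjusted p = 0.00984), and Iscu, the scaffold protein (-1.31, adjusted p = 0.0235). Whether these falls differ from those of genes of like CDS length was not tested. The shortest of the 20 length bins had a median translation level change of -1.03 (quartiles -1.50 and -0.54). Bola3 and Isca1 were called lower in all 3 fractions, and the monosome level of Bola3 was 180 ± 6.61 CPM in WT against 48.6 ± 4.1 CPM in KO cells (n = 3).

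KO cells lack canonical miRNAs, among them the miR-290 family, which is abundant in ESCs. The miR-302 family shares its seed. In a reporter line of the study, ESCs before differentiation were negative for the miR-302 reporter. The 3′ UTRs of the 5 genes were searched for the letters that pair with bases 2 to 7 of these miRNAs. Mature sequences, from RefSeq, are given with the seed (bases 2 to 8) in capitals.
mmu-miR-294-3p: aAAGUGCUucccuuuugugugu
mmu-miR-302b-3p: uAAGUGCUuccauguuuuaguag

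The letters GCACTT, read on the strand of the message, occur at 2 places in the Tfrc 3′ UTR, from bases 986 and 999, between its elements 2 and 3. Aco1 has 1, from base 23 of its 3′ UTR. The longer AGCACTT, which pairs with the whole seed, is at 1 place, the second in Tfrc, and was found in 28.0% of 3′ UTRs of like length. Both stretches are printed with these letters in capitals.
Tfrc 3′ UTR, chr16:32631317-32631346, plus strand: gttttGCACTTatggtcaGCACTTgcaact
Aco1 3′ UTR, chr4:40197678-40197707, plus strand: ctcaggagacccGCACTTggtgctagaccc

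A match to 6 letters is common in long 3′ UTRs: it was found in 51.7% of 1442 3′ UTRs within 20% of the length of that of Tfrc and in 16.7% of 1356 near that of Aco1. Fth1, Ftl1 and Ireb2 held none, where 5.2%, 5.0% and 57.3% of 3′ UTRs of like length did.

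Across the 18 libraries, the genes whose log2 levels were most like those of each member were also listed, among 7022 coding genes with a mean of 20 CPM or more. They were Ccdc86, Fam169b and Eef1b2 for Fth1 (Pearson's r 0.855, 0.855 and 0.845) and Diaph1, Hspa5 and Atp2a2 for Tfrc (0.966, 0.954 and 0.954). For Aco1 they were Patz1, Dhx30 and Sept1 (0.901, 0.882 and 0.879) and for Ireb2 Gabpb1, Sephs1 and Csnk1a1 (0.868, 0.776 and 0.764). For Ftl1, with its few counts, they were Pnn, Asb6 and Nop56 (0.911, 0.882 and 0.879). Among the members themselves r was highest between Tfrc and Aco1 (0.773) and between Fth1 and Ftl1 (0.685), and it was -0.23 between Fth1 and Tfrc. The points share 6 gradients and the fraction pattern, and these values carry no test.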

How the data were processed

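Mouse ESC polysome fractions (18 libraries) were sequenced from 3′ ends with QuantSeq, single-end, 50 bases. The authors deposited 1 table of read counts, not normalised, made with Cutadapt 1.14, STAR 2.5.3a (reads aligned to 1 place only, mm10) and strand-specific featureCounts 1.5.3 over the GENCODE M14 basic annotation without rRNA genes. No step on molecular identifiers was stated. Spike-in rows (92, at most 0.00215% of reads) were left out. The deposited table also gives an exonic length for each gene, not used in the fits. Library totals were 1151649 to 4984833 counts.

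Symbols, UTRs and CDS were taken from GENCODE M21 on GRCm38 (51274 genes matched), with the APPRIS principal transcript of each gene. Counts were scaled with TMM factors (edgeR 4.0.16) and fitted with limma-voom (limma 3.58.1, R 4.3.3), 1 mean for each of 6 groups, no block, two-sided, with Benjamini-Hochberg adjustment over 12851 genes. The study's methods name limma, an interaction term and a CPM filter, and its thresholds for another comparison were used here. The fit was tested on simulated data. Ratios per gradient are log2 CPM differences with a prior count of 2. Pooled ratios of Ftl1 have exact binomial intervals (SciPy 1.17.1). Alternatives were edgeR, DESeq2 1.42.0, limma-trend, other scalings and filters, replicate blocks, added ferritin copies and leaving out each gradient. The members and lists were chosen with earlier results of these data known. Members are always named, as are listed genes with an IRE. From the 3 other lists, genes were named if called in translation level or called in 1 direction in all 3 fractions. Of the listed genes, 2 are not reported here and were left out of the list counts.

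Fractions with the same number and genotype come from 1 gradient per the labels, and their deviations from group means correlated at 0.032 to 0.135 over genes (median 0.062, 18 pairs). Across genotypes, libraries of the same fraction and number correlated at 0 to 0.102 (median 0.055, 9 pairs). Those with different numbers correlated at -0.099 to 0.055 (median -0.0145, 18 pairs), so the same number went with slightly higher values. Whether the number marks a shared batch was not tested. The main fit did not pair WT with KO by number, and fits with the number as a block are given as alternatives.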

Additional observations from a re-analysis of the deposited data

Results flagged for a closer look

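The effect of genotype differed between fractions for Fth1 and Tfrc, by the interaction test of limma over all genes tested. For Fth1 the high polysome to monosome ratio changed by 0.85 on the log2 scale (adjusted p = 0.00254) and the low polysome to monosome ratio by 0.87 (adjusted p = 0.00449), with 3 of 3 KO gradients above all WT gradients in both. For Tfrc the high polysome to monosome ratio changed by 0.90 (adjusted p = 0.000493) and the high to low polysome ratio by 0.73 (adjusted p = 0.00464), again with 3 of 3 KO gradients above all WT gradients. None passed the fold threshold of 1.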

How the results depend on the processing

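The 60 log2 values of the 5 genes (12 comparisons) were recomputed under each alternative, among them 1 chosen after seeing the data, in which rows sharing windows with Fth1 or Ftl1 were added to them. The changes of Fth1 and Tfrc in translation level kept their direction in every fit: with 1 gradient left out at a time, Fth1 lay between 0.76 and 0.97 (adjusted p 0.00247 to 0.0246), and under the other alternatives between 0.52 and 0.86, and Tfrc from 0.72 to 0.98 (0.000239 to 0.0127) and from 0.57 to 0.91. The lowest values, 0.52 and 0.57, came with total counts. With the replicate block the translation level change was 0.84 for Fth1 and 0.88 for Tfrc, and with blocks by gradient 0.85 and 0.88. The blocks changed 1 call by both thresholds, that of Ftl1 in low polysomes, KO against WT (1 of 5 genes with the replicate block, 0 without). Over all alternatives the adjusted p of the members crossed its threshold in 57 values (15 lost, 42 gained), 24 of them with 1 gradient left out and 11, all gained, with a replicate block. Blocks by gradient could not be fitted for KO against WT within a fraction.

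By the adjusted p alone, the number of the 5 genes past the threshold was 2 for the translation level, 1 for each of the other changes of ratio, 2, 1 and 2 for KO against WT in monosomes, low and high polysomes, 2 for low polysomes against monosomes in KO and 2 for high against low polysomes in WT. For KO against WT in low polysomes 1 gene was called, Ftl1, by edgeR and by limma-trend, and 0 to 1 when 1 gradient was left out. With 10 CPM as the filter, Ftl1 was not tested and Aco1 was not called, which left 1 gene (high polysomes against monosomes in WT, the same in KO, low polysomes against monosomes in WT, high against low polysomes in KO) or 0 (low polysomes against monosomes in KO). Total counts gave 0 genes for high against low polysomes in KO. Leaving out 1 gradient gave 1 to 2 genes for KO against WT in high polysomes (2 with Aco1, without WT replicate 1 or KO replicate 2), 1 to 2 for low polysomes against monosomes in WT and 0 to 1 in KO.

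Of the recomputed values 39 changed sign, 0 of them called, and none exceeded 0.16 in size as reported. The high to low polysome ratio change of Fth1 was 0.013 with DESeq2, 0.016 with its size factors and -0.187 to 0.149 without 1 gradient, and its high to low polysome ratio in KO -0.259 to 0.075. Ftl1, high against low polysomes in KO, was 0.023 with only the libraries compared, 0.067 and 0.215 with copies added by name and by shared windows, and -0.193 to 0.109 without 1 gradient. Tfrc, low polysomes against monosomes in WT, was 0.025 with no filter and -0.117 to 0.055 without 1 gradient. The low polysome to monosome ratio change of Aco1 was -0.418 to 0.037. Aco1, high polysomes against monosomes in WT, was 0.016 with edgeR, 0.02 with DESeq2, 0.044 with limma-trend, 0.063 with total counts, 0.096 with no filter, 0.014 with blocks by gradient and -0.257 to 0.292 without 1 gradient. The translation level change of Ireb2 was 0.041 with edgeR, 0.036 with DESeq2, 0.002 with its size factors, 0.061 and 0.06 with the replicate blocks and -0.245 to 0.32 without 1 gradient. Ireb2 in low polysomes, KO against WT, was 0.01 with no filter, 0.0 with the replicate block and -0.113 to 0.134 without 1 gradient. Ireb2, low polysomes against monosomes in WT, was 0.0 with total counts, 0.034 with no filter and -0.113 to 0.133, and high against low polysomes in KO -0.043 with total counts and -0.077 to 0.229. The cause of these was not tested. The 109 counts of Ftl1 limit every value of that gene, and DESeq2 gave no adjusted p for it in 2 changes of ratio.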
